A study of Mus musculus with 9 samples.

Results

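Autophagy and lysosome genes were followed across 9 mouse liver RNA sequencing libraries. The set is a list of 36 genes of autophagosome formation, cargo recognition, the lysosomal membrane, lysosomal hydrolases and their transcription factors, taken by gene name from 17046 genes listed in all, with all 36 present for every group. By role it holds 9 genes of initiation and the phagophore, 6 of the conjugation machinery, 5 ATG8 proteins, 1 cargo receptor, 3 lysosomal membrane genes, 6 cathepsins, 4 other hydrolases and 2 transcription factors. Of these, 35 reached the level needed for testing in every comparison (an FPKM of at least 1 in 3 libraries), and Tfeb did not.

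Autophagy encloses cytoplasm in a double membrane, the autophagosome, and delivers it to the lysosome, where acid hydrolases break it down. The ULK1 complex starts the process, a lipid kinase complex around Beclin 1 marks the growing membrane (the phagophore), and a ubiquitin-like conjugation system attaches ATG8 proteins (the LC3 and GABARAP families) to it. In the liver this pathway removes damaged mitochondria and lipid droplets and supplies nutrients in fasting, and TFEB and TFE3 are the transcription factors best known for raising its genes.

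The labels and design text describe 3 groups of 3 livers. All mice were wild type and had received an AAV8 vector by tail vein, in which the TBG promoter, active in hepatocytes, drove either an empty cloning site (MCS-3×FLAG-WPRE, the control virus) or Mettl3 (Mettl3-3×FLAG-WPRE). After 3 weeks they were given control or ethanol diet for 10 days, closed by 1 binge of maltose or ethanol. The labels call the groups WT_Pair-fed (here pair-fed livers: control diet, maltose binge), WT_EtOH-fed (ethanol-fed livers: ethanol diet and binge) and Mettl3OE_EtOH-fed (Mettl3 livers: ethanol diet and binge with the Mettl3 virus). Sample labels name no virus for the WT groups, and the control virus is taken from the design text. Mettl3 encodes the catalytic subunit of the enzyme that writes N6-methyladenosine on RNA, and the promoter limits the added copy to hepatocytes. Age, sex, batch and whether animals were pooled are not given in the sources used here. The labels do not say that replicates are separate animals, so the p-values measure only the spread between these libraries.

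Mettl3 was at 3.97, 3.10 and 3.38 FPKM (reads scaled by gene length and library depth) in pair-fed livers, then 5.44, 4.86 and 3.78 in ethanol-fed livers and 38.5, 25.0 and 33.3 in Mettl3 livers, which fits the labels. Libraries held 34656480 to 38159563 reads over listed genes. The 7 hepatocyte markers summed to 47590 to 62662 FPKM in every library, and none was at 0. Across genes, Pearson's r between pair-fed livers was 0.991 to 0.994. Ethanol-fed liver 1 reached only 0.972 to 0.973 with the others of its group and Mettl3 liver 3 only 0.972 to 0.977, so several results that rest on either are also given without it. Kupffer cell markers, those of the liver's resident macrophages, moved with diet. Against pair-fed livers 9 of 12 were called lower in ethanol-fed livers (26.0% of all genes were) and 11 of 12 in Mettl3 livers (34.9% of all genes). Marco went the other way. It read 3.52, 7.38 and 6.60 FPKM in pair-fed, 6.92, 10.7 and 8.15 in ethanol-fed and 8.19, 7.10 and 9.34 in Mettl3 livers. The summed level of the 12 was 346 to 393 FPKM in pair-fed, 185 to 277 in ethanol-fed and 165 to 288 in Mettl3 livers, with none at 0. Without pair-fed liver 2 or 3 the count in ethanol-fed livers was 2 of 12, and without pair-fed liver 2 or 3 or Mettl3 liver 2 that in Mettl3 livers was 6 of 12. Neutrophil markers summed to 7.50 to 11.7 FPKM in pair-fed, 9.36, 68.6 and 75.7 in ethanol-fed and 49.4 to 107 in Mettl3 livers. Ethanol-fed liver 1 was within the pair-fed range. In Mettl3 against pair-fed livers 5 of 6 tested were called higher (13.9% of all genes were). Sinusoidal endothelial markers went both ways: with ethanol 5 of 7 were called lower, while Lyve1 was called higher, at 5.32, 4.87 and 3.85 FPKM and then 16.1, 16.3 and 30.5, and Pecam1 was above the pair-fed range in all ethanol-fed livers without a call.

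Levels differed widely within the set. In pair-fed livers Lamp1 was the highest member at 252 ± 13.3 FPKM (SD, n = 3), followed by Gabarapl1 at 226 ± 43.2, whose values overlapped with it, and by Ctsh at 182 ± 16.4. The lowest were Tfeb at 0.730 ± 0.161 and Atg2b at 4.24 ± 0.481 FPKM. After ethanol the order changed at the top: Ctsl, at 362 ± 82.8 FPKM, stood above every other member in the 3 ethanol-fed livers and in the 3 Mettl3 livers.

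The first comparison asked what chronic ethanol feeding with a binge did to these transcripts in control-virus livers. Cathepsin L (Ctsl) rose 2.57-fold, while the lysosomal acid lipase Lipa, the ATG8 gene Gabarapl1 and cathepsin H (Ctsh) fell to 0.462, 0.442 and 0.599 of the pair-fed mean. In limma's moderated test on log2(FPKM + 1), 11 of 35 members were called, 4 higher and 7 lower, where called means an adjusted p below 0.05 over 10064 genes. The members called higher were 11.4%, against 10.0% of all genes, and those called lower 20.0%, against 26.0%, shares near those of the whole transcriptome. Groups did not overlap for some members: 4 were higher with ethanol (11.4% against 15.4% of all genes) and 10 were lower (28.6% against 37.2%). The median log2 fold change was -0.08 over members and -0.14 over all genes. Scaling the libraries by the median ratio of all genes moved these medians to 0.08 and 0.00 and the calls to 7 higher and 5 lower (all genes: 17.2% higher and 17.7% lower). Folds on this scale understate changes of low genes.

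**Figure D1:**
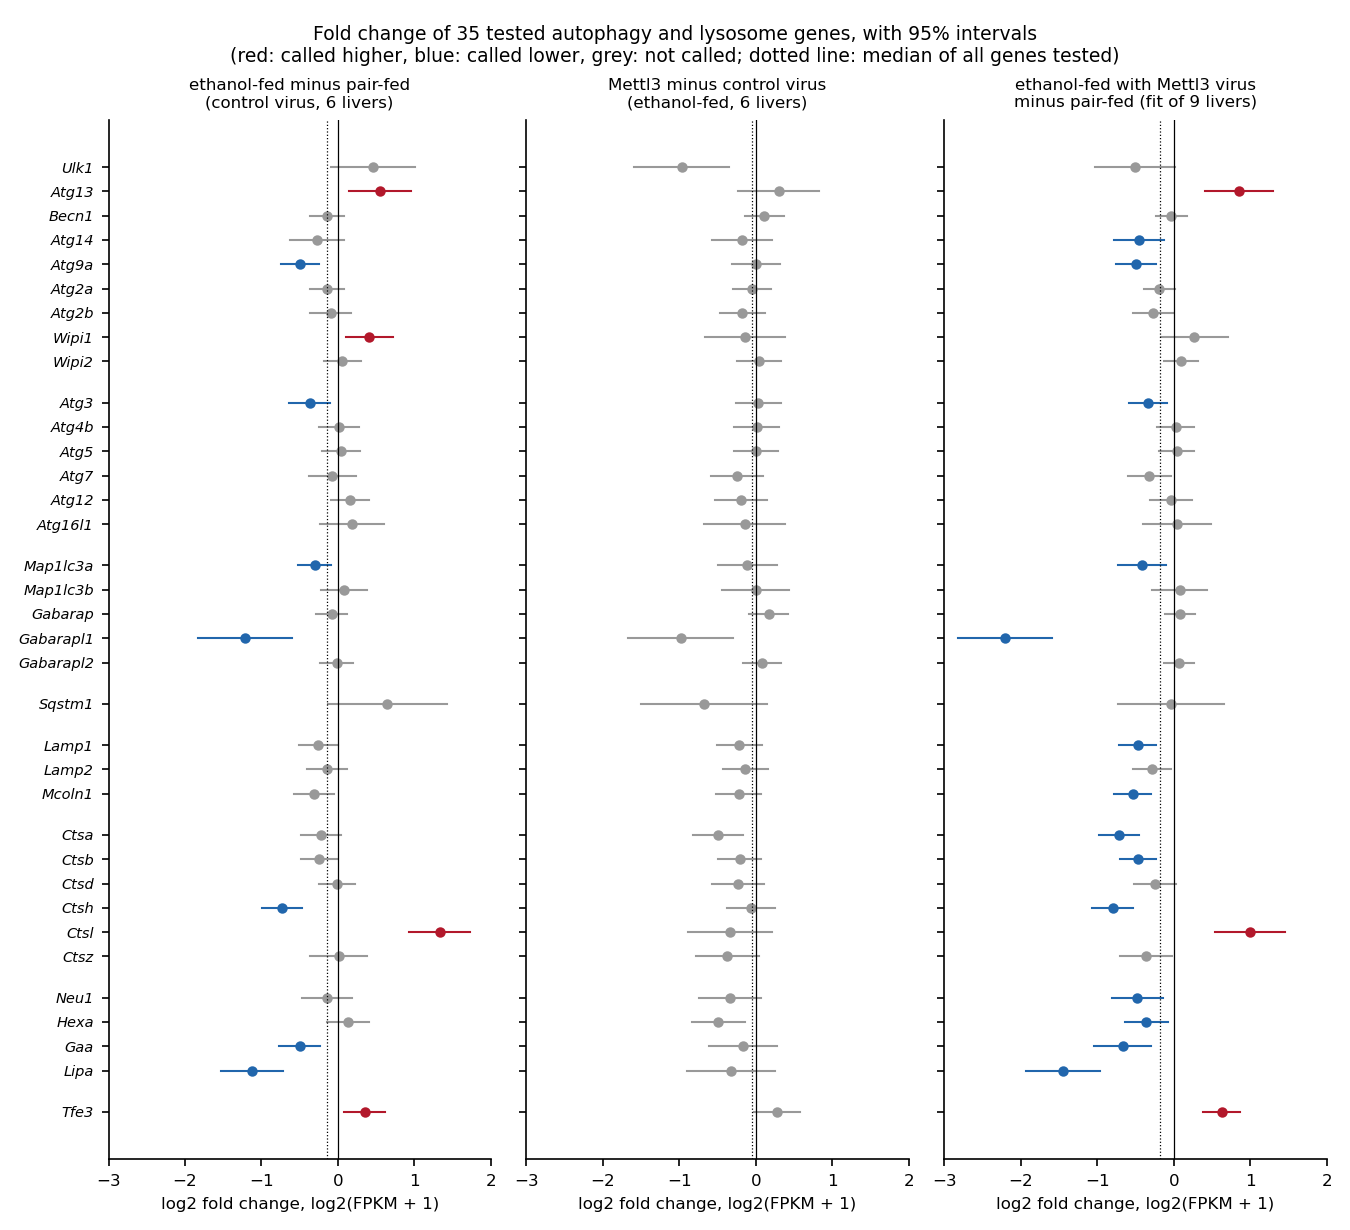
Log2 fold change on log2(FPKM + 1) (x axis) of the 35 tested members, ordered by role, in the 3 comparisons; points are limma estimates, bars their 95% intervals, red and blue mark calls. Ctsl at 1.33 stands far right and Lipa at -1.12 and Gabarapl1 at -1.22 far left in the first panel, the middle panel has no call, and the last panel has 14 calls on the left.

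Among initiation and phagophore genes 2 of 9 rose and 1 fell. Atg13, the adaptor that holds the ULK1 kinase complex together, was at 11.8, 10.0 and 10.4 FPKM in pair-fed, 12.4, 20.5 and 16.5 in ethanol-fed and 22.3, 23.6 and 15.4 in Mettl3 livers. All ethanol-fed livers were above all pair-fed ones, the first of them by little (log2 fold change 0.55, SE 0.17, limma's adjusted p 0.0423). Wipi1, which binds the lipid PI3P on the phagophore, read 7.01, 5.93 and 6.27 FPKM without ethanol and 7.40, 9.13 and 10.2 with it (0.41, adjusted p 0.0429). Its Mettl3 livers spread from 5.97 to 11.1 FPKM and overlapped with both other groups. Each of these 2 calls held in 4 of 12 alternative settings (another pseudocount, filter, scaling, model or fit, or 1 library left out). Both were lost without any 1 of the 3 pair-fed livers and without ethanol-fed liver 2 or 3, at adjusted p between 0.0695 and 0.154.

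Atg9a, the membrane protein whose vesicles seed the phagophore, went the other way. It was at 12.1, 12.7 and 13.5 FPKM in pair-fed livers, then 9.81, 8.33 and 8.16 in ethanol-fed livers and 8.88, 7.58 and 9.94 in Mettl3 livers, with both ethanol groups wholly below the pair-fed one. Its log2 fold change with ethanol was -0.50 (SE 0.10, adjusted p 0.0115), and leaving out pair-fed liver 2 or 3 raised the adjusted p to 0.0552 and 0.0574. A noncoding transcript on the same strand, Gm29253, shares 31.8% of its exonic bases.

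Ulk1 (Entrez 22241, chromosome 5, 110784489 to 110810120, GRCm38), the kinase that starts autophagy, was uneven. It read 17.7, 15.9 and 15.2 FPKM in pair-fed livers, then 34.5, 19.5 and 17.4 in ethanol-fed livers and 10.3, 9.65 and 13.8 in Mettl3 livers. Ethanol-fed liver 1 was far above the other 2, which lay near the pair-fed range, and all Mettl3 livers were below every other liver. With ethanol its log2 fold change of 0.46 (95% interval -0.09 to 1.01) missed the threshold at adjusted p 0.159, and passed under median-ratio scaling at 0.0447. Without ethanol-fed liver 1 it was 0.17. The authors' deposited table gives a q below 0.05 to 13 members, 8 higher and 5 lower, where 26.6% of 16842 genes pass, and 9 of these 13 are also called by limma. Ulk1 is among its higher ones, at q 0.00535. Becn1, Atg14, Atg2a, Atg2b and Wipi2 were not called, with log2 fold changes from -0.27 for Atg14, the Beclin 1 partner that targets the lipid kinase to the phagophore, to 0.06 for Wipi2, which recruits ATG16L1. Cntd1, on the opposite strand, shares 43.9% of the exonic bases of Becn1.

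Of the 6 conjugation genes, 1 was called. Atg3, the E2-like enzyme that passes ATG8 proteins to lipid, was at 39.1, 41.1 and 45.0 FPKM in pair-fed and 36.1, 28.9 and 31.3 in ethanol-fed livers, without overlap (log2 fold change -0.37, SE 0.11, adjusted p 0.0381). That call held in 4 of 12 alternatives, was lost under median-ratio scaling at -0.20 (adjusted p 0.151) and was lost without any 1 pair-fed liver or ethanol-fed liver 2 or 3. The E1-like enzyme gene Atg7, the protease gene Atg4b, and Atg5, Atg12 and Atg16l1, whose proteins form the complex that lipidates ATG8, had log2 fold changes between -0.07 (Atg7) and 0.19 (Atg16l1). Atg5 was at 19.0, 19.0 and 19.2 FPKM in pair-fed, 22.5, 18.4 and 18.2 in ethanol-fed and 18.6, 20.7 and 19.6 in Mettl3 livers.

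The 5 ATG8 genes did not move together. Gabarapl1 (Entrez 57436, chromosome 6, 129533192 to 129542331, GRCm38), a GABARAP-family ATG8 protein, was at 188, 217 and 273 FPKM in pair-fed livers, then 145, 72.5 and 82.3 in ethanol-fed livers and 38.7, 44.8 and 62.6 in Mettl3 livers. The 3 groups did not overlap, and ethanol-fed liver 1 was the nearest of its group to the pair-fed range. With ethanol its log2 fold change was -1.22 (SE 0.26, adjusted p 0.0122), a call that held in 11 of 12 alternatives and missed without pair-fed liver 3 at adjusted p 0.054. Without ethanol-fed liver 1 it was -1.52. The annotation places a noncoding transcript, 1700101I11Rik, opposite 28.3% of its exonic bases. Whether the counting used strand is not stated.

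Of its relatives, Gabarap, Gabarapl2 and Map1lc3b were not called with ethanol. Gabarap, its close paralogue, was at 153, 147 and 155 FPKM in pair-fed, 139, 149.8 and 141 in ethanol-fed and 154, 171 and 157 in Mettl3 livers, and Gabarapl2 stayed between 27.6 and 32.5 FPKM in all 9. The LC3 gene Map1lc3b read 34.8, 33.5 and 33.4, then 29.6, 37.9 and 40.8, then 35.1, 44.2 and 29.5 FPKM, with wide overlap. Map1lc3a fell slightly: its pair-fed mean was 20.7 ± 1.20 FPKM and its ethanol-fed mean 16.6 ± 0.675 (SD, n = 3 for both; on the log2 scale -0.30, adjusted p 0.0379), and kept that call in 2 of 12 alternatives, being lost on leaving out any 1 library except ethanol-fed liver 1. The authors' deposited table gives Map1lc3a a log2 fold change of -0.13 with q 0.566. A ratio within each library, chosen after the values were seen, shows the paralogues Gabarapl1 and Gabarap against each other without any scaling. Gabarapl1 over Gabarap was 1.23, 1.48 and 1.77 in pair-fed livers, then 1.05, 0.484 and 0.585 in ethanol-fed livers and 0.250, 0.263 and 0.399 in Mettl3 livers. Of the summed FPKM of the 5 genes, Gabarapl1 made up 44.2 to 53.3% in pair-fed, 23.7 to 40.2% in ethanol-fed and 14.0 to 21.0% in Mettl3 livers. The sum itself went from 462 ± 45.1 to 325 ± 30.6 and 292 ± 13.4 FPKM.

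**Figure D2:**
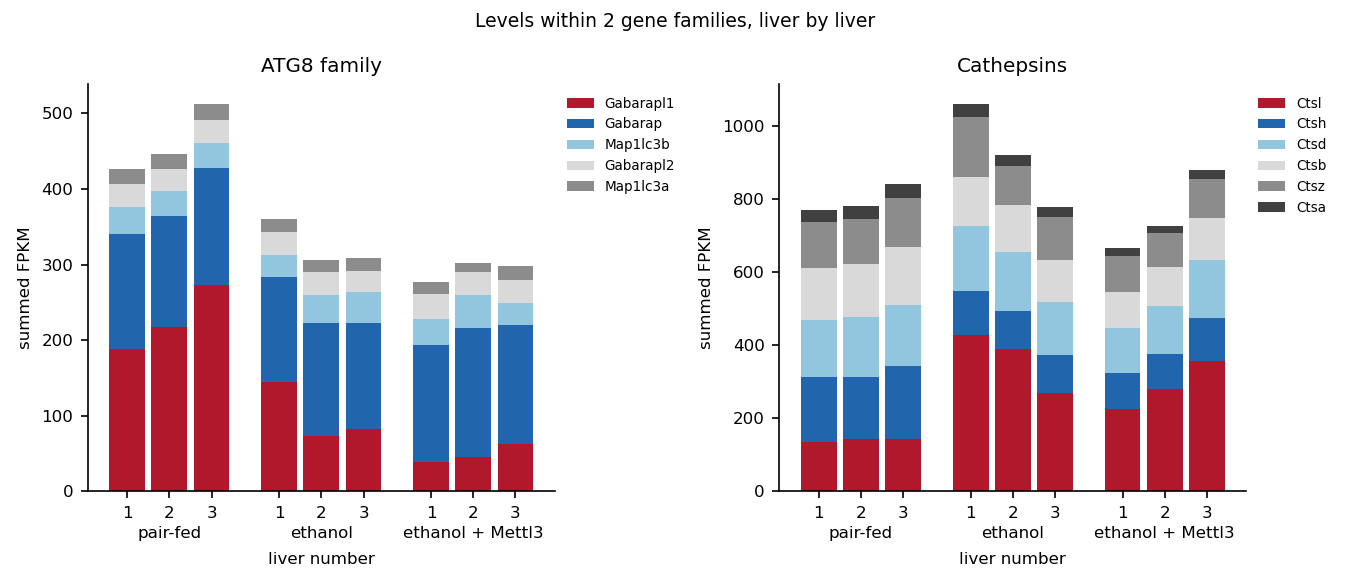
Stacked FPKM of the 5 ATG8 genes (left) and the 6 cathepsins (right) in each of the 9 livers; each bar is 1 library. The Gabarapl1 block shrinks from 188 to 273 FPKM in pair-fed to 38.7 to 62.6 in Mettl3 livers, and the Ctsl block grows from 135 to 144 FPKM in pair-fed to 269 to 428 in ethanol-fed livers.

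Sqstm1 (Entrez 18412, chromosome 11, 50200152 to 50210820, GRCm38), which encodes p62, the receptor that ties ubiquitinated cargo to ATG8 proteins, split the ethanol-fed group. It was at 61.9, 60.6 and 63.7 FPKM in pair-fed livers, then 142, 123 and 53.1 in ethanol-fed livers and 53.6, 61.6 and 67.7 in Mettl3 livers. Ethanol-fed livers 1 and 2 were about level with each other and far above all other libraries, while liver 3 was below every pair-fed one. Its log2 fold change of 0.65 (95% interval -0.13 to 1.42) was not called, at adjusted p 0.163, nor without ethanol-fed liver 1 (0.38, adjusted p 0.368) or liver 2 (0.48, adjusted p 0.364). Without ethanol-fed liver 3 it was 1.08 and called, at adjusted p 0.00435. The authors' deposited table gives a log2 fold change of 0.93 with q 0.00321.

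**Figure D3:**
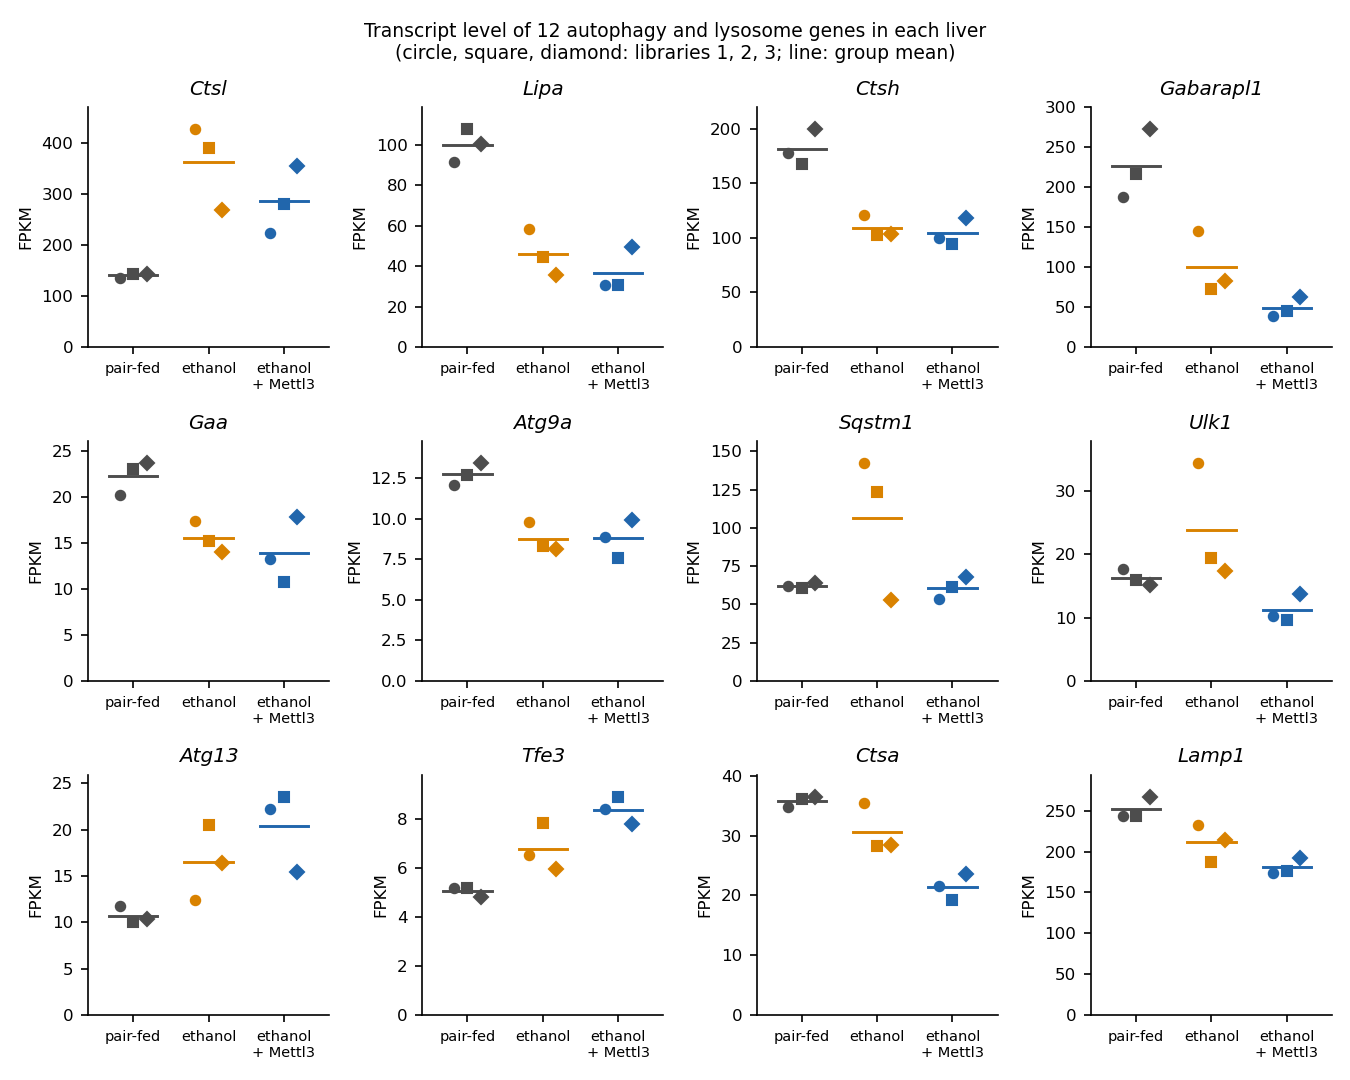
FPKM (y axis, from 0) of 12 members in each liver; circle, square and diamond are libraries 1, 2 and 3 and the line is the group mean. Ctsl in all ethanol livers lies above the pair-fed ones, Lipa, Ctsh, Gaa and Atg9a lie below them, and Sqstm1 is high in 2 of 3 ethanol-fed livers, at 142 and 123 FPKM.

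The lysosomal membrane genes had no call with ethanol. Lamp1, a glycoprotein that lines the lysosomal membrane, was at 244, 244 and 267 FPKM in pair-fed and 233, 187 and 214 in ethanol-fed livers, all below the pair-fed range (log2 fold change -0.26, adjusted p 0.107). Mcoln1, the lysosomal calcium channel TRPML1, went from 11.9, 13.3 and 11.8 to 11.1, 9.10 and 9.06 FPKM (-0.31, adjusted p 0.0642). Lamp2, needed for fusion with autophagosomes, went from 114 ± 8.22 to 103 ± 11.0 FPKM (SD, n = 3 each), with overlap. Without ethanol-fed liver 1, which was the highest of its group in all 3 genes, Lamp1 and Mcoln1 were called lower, together with Ctsa, Ctsb and Neu1, and the members called lower numbered 12 in place of 7.

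Of the 6 cathepsins, 1 rose and 1 fell. Cathepsin L (Entrez 13039, chromosome 13, 64361890 to 64370772, GRCm38), a cysteine protease of the lysosome, was at 135, 144 and 143 FPKM in pair-fed livers, then 428, 389 and 269 in ethanol-fed livers and 224, 280.0 and 355 in Mettl3 livers. Both ethanol groups lay wholly above the narrow pair-fed range and overlapped with each other. The rise with ethanol was 1.33 on the log2 scale (SE 0.17, adjusted p 0.00233), and it was called in all 12 alternatives, at 1.20 to 1.53. An antisense gene, Gm47123, lies opposite 26.8% of its exonic bases, and a pseudogene on the same strand, Gm49230, shares 6.09%.

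Cathepsin H, an aminopeptidase, fell from 178, 168 and 199.8 FPKM in pair-fed livers to 120.5, 103 and 103 in ethanol-fed livers, and read 100.2, 94.6 and 118 in Mettl3 livers. Again neither ethanol group overlapped with the pair-fed one (log2 fold change -0.73, SE 0.11, adjusted p 0.00385), and the call held in all 12 alternatives. Cathepsin D, the main aspartic protease, stayed at 162 ± 6.12 and 161 ± 15.5 FPKM, and cathepsin B, a cysteine protease, went from 149 ± 9.48 to 125 ± 10.4 (SD, n = 3 each; adjusted p 0.0926). A protein-coding gene on the same strand, Gm49369, shares 34.4% of the exonic bases of Ctsd. Ctsz spread from 108 to 165 FPKM in ethanol-fed livers, on both sides of the pair-fed range of 123 to 134. Ctsl was about level with Ctsb in pair-fed livers, at a within-library ratio of 0.941, 0.999 and 0.895. That ratio, also chosen after the values were seen, was 3.18, 3.06 and 2.35 in ethanol-fed and 2.23, 2.63 and 3.03 in Mettl3 livers. The Ctsl share of the cathepsin sum was 17.1 to 18.4% in pair-fed, 34.6 to 42.4% in ethanol-fed and 33.6 to 40.5% in Mettl3 livers.

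Among the other hydrolases 2 of 4 fell. Lipa (Entrez 16889, chromosome 19, 34492316 to 34527474, GRCm38), the acid lipase that hydrolyses cholesteryl esters and triglycerides in the lysosome, was at 91.7, 108 and 100.4 FPKM in pair-fed livers, then 58.4, 44.6 and 35.8 in ethanol-fed livers and 30.5, 30.7 and 49.3 in Mettl3 livers. Every ethanol-treated liver was below every pair-fed one. Its log2 fold change with ethanol was -1.12 (SE 0.17, adjusted p 0.00411), and it was called in all 12 alternatives. Gaa, the acid glucosidase that degrades glycogen, fell from 20.2, 23.1 and 23.8 to 17.4, 15.2 and 14.0 FPKM (-0.50, adjusted p 0.0154), a call lost without pair-fed liver 2 or 3. Neu1, a sialidase, and Hexa, a subunit of beta-hexosaminidase, overlapped between the groups, at 7.04 ± 0.233 and 6.37 ± 1.39 FPKM for Neu1 and 20.7 ± 1.02 and 22.9 ± 3.21 for Hexa (SD, n = 3 each). Kupffer cells are rich in lysosomes, and their markers, except Marco, fell beside these hydrolases. In whole liver, fewer cells of a type and less RNA per cell cannot be told apart, and the part of Kupffer, endothelial or neutrophil RNA in these differences was not tested.

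Tfe3, a transcription factor of lysosome and autophagy genes, was at 5.20, 5.18 and 4.81 FPKM in pair-fed, 6.51, 7.83 and 5.94 in ethanol-fed and 8.41, 8.90 and 7.78 in Mettl3 livers. The rise with ethanol (0.35, SE 0.11, adjusted p 0.0486) had the highest adjusted p among the calls and held in 6 of 12 alternatives, being lost on leaving out any 1 of the pair-fed livers, or ethanol-fed liver 2. Tfeb, its relative, stayed below 1 FPKM in every liver, at 0.812, 0.545 and 0.833, then 0.726, 0.405 and 0.520, then 0.329, 0.275 and 0.594, from 77 to 234 reads per library, and was not tested.

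TFEB and TFE3 bind a palindrome named the CLEAR element, which contains the shorter E-box, so the promoters of members were searched for both, together with sites of ATF4, FOXO factors and the antioxidant response. RefSeq windows of 250 bases before to 50 after the transcription start on GRCm38.p6 were found for 30 of 36 members (34 windows), without Becn1, Atg12, Atg16l1, Map1lc3a, Ctsb and Ctsh. The CLEAR letters TCACGTGA were in the promoters of 4 of 30 members (13.3%), against 1.12% of 27025 genes with such windows. The E-box CACGTG, which also lies inside every CLEAR match, was in 10 (33.3% against 8.09%). TGATGNAA (ATF4) was in 1 (3.33% against 4.51%), GTAAACA (FOXO) in 0 (against 4.05%) and TGACNNNGC (antioxidant element) in 5 (16.7% against 14.0%). Both strands were searched, and a match is a description of letters only. Promoters of 3 of the 4 members with CLEAR matches follow, from -250 to 30, with the matches in capitals, because they show the element in genes of 3 different roles. Ctsa (chr2:164833523-164833802, plus strand, the second of its 2 windows) has 2 of them close together, and Mcoln1 (chr8:3500269-3500548, plus strand) and Atg3 (chr16:45158579-45158858, plus strand) have 1 each, with another E-box left in lower case.
Ctsa: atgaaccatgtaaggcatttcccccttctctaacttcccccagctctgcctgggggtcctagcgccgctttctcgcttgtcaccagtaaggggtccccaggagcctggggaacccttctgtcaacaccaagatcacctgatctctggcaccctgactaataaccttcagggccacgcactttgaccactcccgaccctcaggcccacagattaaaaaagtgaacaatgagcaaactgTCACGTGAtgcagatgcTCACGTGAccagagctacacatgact
Mcoln1: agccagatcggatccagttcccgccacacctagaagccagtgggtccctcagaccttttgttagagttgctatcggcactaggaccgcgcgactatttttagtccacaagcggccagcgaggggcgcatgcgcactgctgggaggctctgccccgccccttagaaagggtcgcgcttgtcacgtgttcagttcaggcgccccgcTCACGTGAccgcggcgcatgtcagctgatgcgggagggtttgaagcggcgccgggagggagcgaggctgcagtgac
Atg3: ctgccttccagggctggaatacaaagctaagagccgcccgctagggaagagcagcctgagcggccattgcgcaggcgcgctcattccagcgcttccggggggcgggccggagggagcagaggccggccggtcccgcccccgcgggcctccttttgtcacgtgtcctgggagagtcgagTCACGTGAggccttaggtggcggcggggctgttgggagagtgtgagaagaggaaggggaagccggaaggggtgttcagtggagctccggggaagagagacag

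For contrast, Ctsl, the member that rose most, has no CLEAR match: in its window (chr13:64370491-64370770, minus strand, printed 5′ to 3′ along the gene) capitals mark 1 E-box and, on the opposite strand, the set's only ATF4 match. This Ctsl window lies inside the annotated gene, whose outer start is at 64370772, so the sequence before that start was not searched. The printed Ctsa window also lies inside its gene, whose outer start is at 164832872. Lamp1 (chr8:13158911-13159190, plus strand) also has no full CLEAR match, and capitals mark its 4 E-boxes.
Ctsl: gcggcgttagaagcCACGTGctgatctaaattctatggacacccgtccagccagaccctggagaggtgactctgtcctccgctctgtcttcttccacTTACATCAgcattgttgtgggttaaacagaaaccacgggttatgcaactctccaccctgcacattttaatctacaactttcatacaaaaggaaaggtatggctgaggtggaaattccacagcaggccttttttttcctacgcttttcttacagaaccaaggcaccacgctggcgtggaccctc
Lamp1: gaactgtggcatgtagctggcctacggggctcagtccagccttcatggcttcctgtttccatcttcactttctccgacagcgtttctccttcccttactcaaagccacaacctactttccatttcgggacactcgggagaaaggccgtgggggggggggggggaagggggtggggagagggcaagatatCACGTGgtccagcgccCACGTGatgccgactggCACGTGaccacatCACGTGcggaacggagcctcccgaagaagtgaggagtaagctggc

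The 4 members with CLEAR matches, Atg3, Ctsa, Ctsd and Mcoln1, read 0 higher and 1 lower (Atg3) with ethanol, and 0 higher and 3 lower (Atg3, Ctsa, Mcoln1) in Mettl3 against pair-fed livers. Tfe3 transcript was higher in both comparisons. The 10 members with an E-box read 1 higher and 2 lower with ethanol and 1 higher and 6 lower in Mettl3 against pair-fed livers; the 19 tested members whose window lacked one read 3 and 3, then 2 and 5. Of all genes, 10.0% were called higher and 26.0% lower with ethanol, and 13.9% and 34.9% in Mettl3 against pair-fed livers. With so few members per motif, nothing about a motif is read from these counts, and binding of any factor was not measured.

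The second comparison asked what Mettl3 added in ethanol-fed livers. No member was called in limma, as main result or in any of 13 alternatives, limma-voom included. Of 9706 genes 0.0103%, Mettl3 alone, were called higher and 0.00% lower. Even Mettl3 was called in only 6 of the 13 alternatives, with limma's adjusted p up to 0.238 in the others. The lack of member calls therefore does not show that members were unchanged. At an unadjusted p below 0.05 there were 4 members lower (11.4%, against 4.66% of all genes) and 0 higher (against 2.79%). These were Ulk1, Ctsa, Gabarapl1 and Hexa, with limma's adjusted p at 0.641 for each. For all of them ethanol-fed liver 1 was the highest of its group. Log2 fold changes were below 0 for 25 of 35 members, with a median of -0.17 against -0.04 over all genes. The member median was -0.11 without ethanol-fed liver 1 and -0.20 without Mettl3 liver 3.

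Ulk1 was at 11.2 ± 2.23 FPKM in Mettl3 and 23.8 ± 9.31 in ethanol-fed livers (SD, n = 3 each), a log2 fold change of -0.97 with a 95% interval of -1.59 to -0.35. Without ethanol-fed liver 1 it was -0.68, and Gabarapl1 was also -0.68. In the authors' deposited table Ulk1 is the only member with q below 0.05, at a log2 fold change of -0.98 and q 0.0161, where 0.613% of 16470 genes pass. Gabarapl1, at 48.7 ± 12.4 against 99.9 ± 39.2 FPKM, had -0.98 (-1.67 to -0.30), and q 0.0667 in the authors' deposited table. Ctsa, the carboxypeptidase that protects Neu1 and beta-galactosidase in the lysosome, read 35.5, 28.2 and 28.4 FPKM in ethanol-fed and 21.6, 19.2 and 23.7 in Mettl3 livers (-0.49, -0.82 to -0.16). Hexa read 25.8, 23.6 and 19.5 and then 16.0, 14.1 and 18.0 FPKM (-0.49, -0.84 to -0.14).

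All Mettl3 livers lay below all ethanol-fed livers for 6 members, Ulk1, Gabarapl1, Mcoln1, Ctsa, Ctsz and Hexa, where 6.62% of all genes did so. For 1 member, Gabarap, they lay above, as for 6.17% of all genes. Wide intervals remained for others: Sqstm1 had -0.68 (-1.51 to 0.15), Ctsl -0.34 (-0.88 to 0.21) and Lipa -0.33 (-0.91 to 0.25). Intervals were narrower for Atg3, at 0.03 (-0.26 to 0.33), and Gabarapl2, at 0.08 (-0.16 to 0.33). Leaving out ethanol-fed liver 1 and Mettl3 liver 3 together, a setting chosen after seeing the data, also gave 0 calls among members.

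The third comparison set ethanol-fed livers with Mettl3 against pair-fed livers, which differ by both diet and virus, so the parts of the 2 cannot be told apart. It shares the pair-fed libraries with the first comparison, and its values are given beside those, not as support for them. Here 17 of 35 members were called in the fit over 10229 genes, 3 higher and 14 lower. The members called lower were 40.0% against 34.9% of all genes, and those called higher 8.57% against 13.9%. The groups did not overlap for 3 members higher in Mettl3 livers (8.57% against 19.3%) and 19 lower there (54.3% against 44.2%). The median log2 fold change was -0.28 against -0.18 over all genes, and under median-ratio scaling -0.09 against 0.00, with 7 members higher and 8 lower (all genes: 23.3% and 23.8%).

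Gabarapl1 had the largest difference in the set, at 48.7 FPKM against 226 in pair-fed livers (log2 fold change -2.20, SE 0.27, limma's adjusted p 0.000781; with ethanol alone -1.22). Lipa followed at -1.45 (SE 0.22, adjusted p 0.00146; with ethanol alone -1.12), then Ctsh at -0.80. Ctsl was higher by 1.00 (SE 0.20, adjusted p 0.00439; with ethanol alone 1.33), Atg13 by 0.85 and Tfe3 by 0.63. Sqstm1 was at -0.03 (-0.72 to 0.66), with Mettl3 livers around the pair-fed level.

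The lysosomal genes made up most of the calls on the low side. All 4 of the other hydrolases were lower, Lipa, Gaa (-0.67), Neu1 (-0.48) and Hexa (-0.36), and 3 of 6 cathepsins were, Ctsh, Ctsa (-0.72) and Ctsb (-0.46). Of the 3 membrane genes, Mcoln1 (-0.53) and Lamp1 (-0.47) were lower. Ctsa was at 21.6, 19.2 and 23.7 FPKM against 34.9, 36.1 and 36.5, Ctsb at 101, 106 and 117 against 143, 144 and 160.1, and Lamp1 at 174, 177 and 193 against 244, 244 and 267, each with no overlap. Neu1 read 5.73, 4.26 and 4.43 against 6.77, 7.18 and 7.17 FPKM and Mcoln1 7.93, 7.74 and 8.94 against 11.9, 13.3 and 11.8. Upstream of the lysosome, Atg9a (-0.50), Atg14 (-0.46), Map1lc3a (-0.42) and Atg3 (-0.34) were lower.

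Calls in all 12 alternatives were Ctsl, Atg13, Tfe3, Gabarapl1, Lipa, Ctsh, Ctsa, Ctsb, Gaa, Mcoln1 and Atg9a. Median-ratio scaling ended the calls of Lamp1, Neu1, Hexa, Atg14, Atg3 and Map1lc3a and gave Atg5, Gabarap, Gabarapl2 and Wipi2 as higher. Atg14, Map1lc3a, Neu1 and Hexa were also lost on leaving out any 1 of the pair-fed livers, and Atg3 on leaving out pair-fed liver 2 or 3. Leaving out Mettl3 liver 1 ended Atg14, Map1lc3a, Hexa and Atg3, Mettl3 liver 2 Map1lc3a, Neu1, Hexa and Atg3, and Mettl3 liver 3 Atg14 and Neu1. Without Mettl3 liver 3 the lower calls numbered 16, with Ulk1, Atg7, Lamp2 and Ctsd among them.

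The rest of the pathway was read from 11 lists of 175 further genes, of which 165 were tested with ethanol. There 17 were called higher (10.3%, against 10.0% of all genes) and 39 lower (23.6% against 26.0%). Median-ratio scaling made these 29 and 22. Without pair-fed liver 2 these were 8 and 12, and without ethanol-fed liver 1 they were 19 and 66. Subunits of the vacuolar proton pump, which acidifies the lysosome, had 3 called higher and 0 lower of 16, with a median log2 fold change of 0.14. Median-ratio scaling gave 8 and 0, where 17.2% of all genes were called higher and 17.7% lower. Selective autophagy receptors other than Sqstm1 had 1 higher and 7 lower of 17, and the fusion machinery of autophagosome and lysosome 0 and 5 of 17. Leaving out 1 library moved the lower calls to 2 to 7 for the receptors and 1 to 9 for fusion, lowest without pair-fed liver 2 or 3 and highest without ethanol-fed liver 1. Other lysosomal hydrolases had 1 higher (Gla) and 6 lower of 28, and without ethanol-fed liver 1 these were 1 and 16, without pair-fed liver 2 they were 0 and 1. In Mettl3 against pair-fed livers the 165 genes gave 20 higher (12.1%, against 13.9% of all genes) and 71 lower (43.0% against 34.9%), or 29 and 44 after median-ratio scaling, with 17 of 28 other hydrolases lower and 13 of 25 genes of mTORC1 and nutrient sensing, the growth pathway that holds autophagy in check. Under median-ratio scaling these were 11 and 7, and without pair-fed liver 2 they were 14 and 6. The mTORC1 list mixes genes that act for and against the pathway, so its count gives no direction for mTORC1 itself. Against pair-fed livers the inhibitor Deptor (-1.46) and Sesn1 (-1.05) were lower. Rraga (0.66) and the inhibitor Ddit4 (1.01, called in 5 of 12 alternatives) were higher. For the Mettl3 comparison under ethanol, limma and limma-voom each called 0 of 162. At an unadjusted p below 0.05 limma had 1 higher (0.617%, against 2.79% of all genes) and 18 lower (11.1% against 4.66%), and limma-voom 1 and 17.

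**Figure D4:**
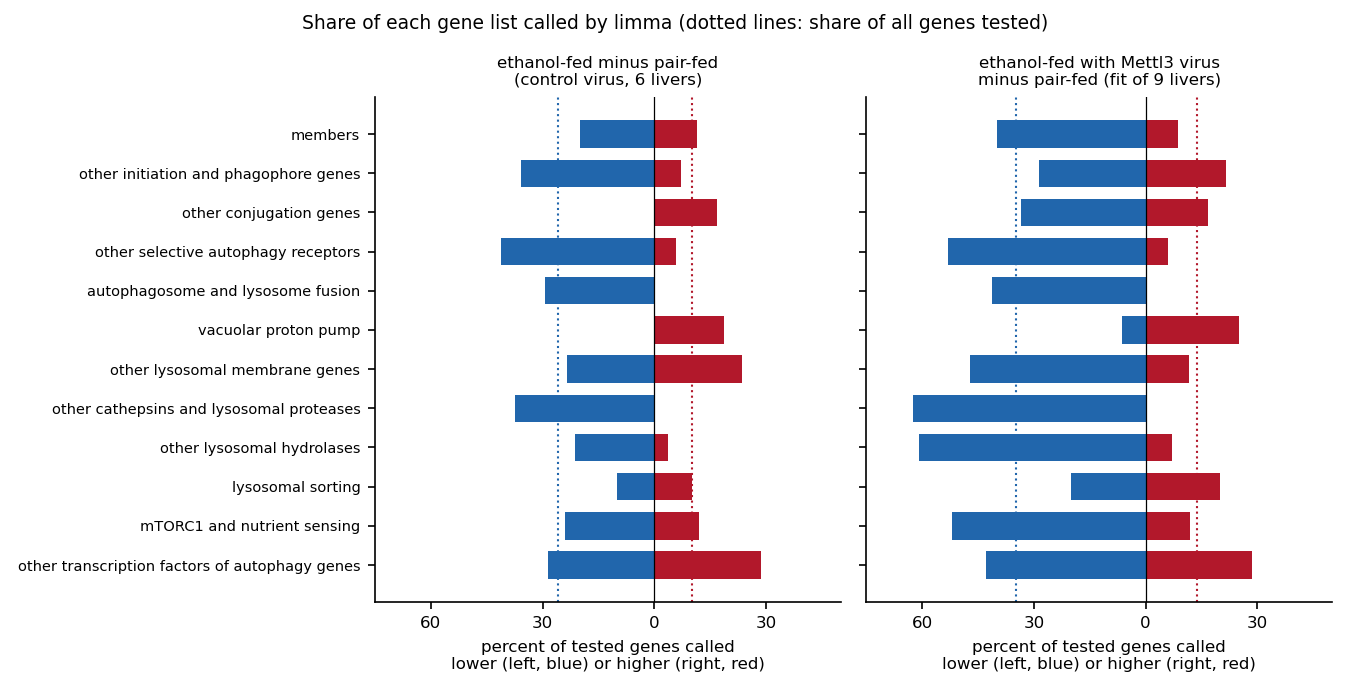
Percent of tested genes called lower (left, blue) or higher (right, red) among the members and in each of the 11 pathway lists, for ethanol-fed and for Mettl3 livers against pair-fed livers; dotted lines are the shares of all genes. Proton pump subunits have no lower call with ethanol, and 17 of 28 other hydrolases are lower in the right panel.

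By size of change, the genes of these lists that rose most with ethanol were Ddit4, an inhibitor of mTORC1, Ddit3 (CHOP), Atf4, Cd63, Atp6v0e and Grn. Ddit4 went from 1.39, 1.27 and 1.66 to 28.4, 14.5 and 8.37 FPKM (log2 fold change 2.73, adjusted p 0.00254) and was at 4.89, 5.00 and 2.36 in Mettl3 livers. Cd63, a tetraspanin of late endosomes and lysosomes, rose by 0.82, the proton pump subunit Atp6v0e by 0.80 and progranulin (Grn), a lysosomal protein, by 0.75. Ppara, a nuclear receptor of fasting, fell from 41.0, 50.4 and 46.4 to 18.0, 10.8 and 10.2 FPKM (-1.78, adjusted p 0.00177). The autophagy receptor Calcoco1 (-1.38), the mTOR inhibitor Deptor (-0.88), the sorting receptor Sort1 (-0.79), the stress sensor Sesn1 (-0.78) and the AMPK subunit Prkaa2 (-0.75) fell as well, Prkaa2 not without pair-fed liver 2 or 3 or ethanol-fed liver 2.

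Atf4 and Ddit3 encode stress factors that are known to raise several autophagy genes in starved cells. Atf4 was at 40.0, 46.9 and 44.0 FPKM in pair-fed and 93.5, 86.2 and 80.4 in ethanol-fed livers (log2 fold change 0.97, SE 0.10, adjusted p 0.00125), and Ddit3 at 2.57, 2.28 and 1.99 and 26.0, 16.0 and 15.4 (2.58, SE 0.20, adjusted p 0.000504). A list of 12 autophagy genes reported as their targets, 10 of them members, had 0 higher and 1 lower (Atg3), with a median of -0.01. Of all genes, 10.0% were called higher and 26.0% lower. Under median-ratio scaling the list had 1 higher (Atg12) and 0 lower, where all genes had 17.2% and 17.7%. In the authors' deposited table Atg12 was higher at q 0.0169, and Atg3 had q 0.327. Sqstm1, described above, was also higher there at q 0.00321, though not called by limma. Whether Atf4 or Ddit3 acted on this list was not tested. In Mettl3 against pair-fed livers Wdr45b, a phagophore protein gene (0.75), and Rraga, a GTPase that brings mTORC1 to the lysosome (0.66), were among the highest of the pathway lists. Npc1, the lysosomal cholesterol exporter (-1.22), and Stbd1, a glycogen receptor (-1.50), were among the lowest. Of these 4, Rraga held in all 12 alternatives, and Wdr45b, Npc1 and Stbd1 in 6, 8 and 4.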

How the data were processed

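RNA from 9 mouse livers was sequenced. Per the submitters' processing notes, reads went through fastp, HISAT2 and HTSeq on mm10; versions and strand setting are not given in the sources used here. The authors deposited 2 tables of 6 libraries with FPKM per library. Per the file headers they also hold a signal column (mean of size-factor-normalized reads), a linear fold (ratio), its log2, and a p-value and q-value. FPKM and signal steps gave whole reads for 100% of genes, within 0.05 of a whole number. Tested members had at least 398 reads in every library.

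Members, lists and named genes were chosen with earlier results of these data known. Named are all members, Mettl3, Atf4, Ddit3 and, per comparison, up to 6 pathway genes per direction with the largest called, non-overlapping change. Genes with FPKM of at least 1 in 3 libraries entered limma 3.58.1 in R 4.3.3 (lmFit, then eBayes with trend and robust) on log2(FPKM + 1), adjusted by Benjamini-Hochberg at 0.05, on 6 libraries, or 9 for Mettl3 against pair-fed livers. Alternatives were a pseudocount of 0.1, no filter, median-ratio scaling, limma-voom on recovered reads, the replicate block, the other fit and leaving out each library. Steps were tested on simulated data. Markers of liver cell types served as checks. Labels do not say whether replicate numbers pair the libraries, so none of the main fits used a pairing. Correlations of deviations, given below, cannot settle this with 3 libraries per group. Python 3.11.15 made tables and figures.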

Additional observations from a re-analysis of the deposited data

How the results depend on the processing

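Results kept their direction wherever a call was made. With ethanol, members called higher numbered 1 with no filter on low values, 7 with median-ratio scaling and 2 in the fit of 9 libraries, in place of 4; leaving out a library gave 1 to 4 higher and 2 to 12 lower, in place of 7. In Mettl3 against pair-fed livers, median-ratio scaling gave 7 higher and 8 lower in place of 3 and 14, and leaving out a library gave 9 to 16 lower. The cause was not tested. Over all genes, ethanol calls (3625) became 2157, 1538 and 1541 without pair-fed liver 1, 2 and 3, and 2392 without ethanol-fed liver 2. Of 1658 gene results under alternatives, 121 lost a call and 23 gained one. Another 15, uncalled in both settings, changed sign with a shift of at least their SE, mostly under median-ratio scaling. The remaining 1499 kept their side of the threshold. Uncalled ones among them may have changed sign with a shift smaller than their SE.

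Same-numbered libraries did not all deviate together: for numbers 1, 2 and 3 their correlations were -0.19, -0.12 and 0.11 with ethanol, -0.36, 0.40 and -0.42 for Mettl3 under ethanol, and 0.05, -0.05 and 0.09 for Mettl3 against pair-fed livers. With the replicate block, ethanol gave 1 member higher and 5 lower, Mettl3 under ethanol 0 and 0, and Mettl3 against pair-fed livers 3 and 12. Every tested member had at least 398 reads in each library, and Tfeb 77 to 234; what depth adds to the spread between libraries was not tested.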
